A study of Homo sapiens with 15 samples.

Results

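NDRG1 and SLC2A1 are hypoxia genes of 786O cells. They were selected on measured values, the presence of a BMAL1 peak and a HIF2α peak at the gene in shControl cells, so that the presence of both is no finding. A peak of any of the 4 deposited lists was taken as theirs when its summit, the position of highest signal, lay in the gene body or had a start site of the gene as the nearest protein-coding one. By this rule 22 of 4873 peaks belonged to the 2 genes, 13 to NDRG1 and 9 to SLC2A1, and peaks that overlapped by at least 1 bp were joined into 9 sites.

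HIF2α, encoded by EPAS1, is a bHLH-PAS transcription factor that pairs with ARNT on hypoxia response elements (HREs), whose core is ACGTG or GCGTG, and it is stable in clear cell renal cell carcinoma (ccRCC) cells that have lost VHL. BMAL1 is a bHLH-PAS protein of the circadian clock that pairs with CLOCK on the E-box CACGTG, a sequence that contains the HRE core on each strand. NDRG1 encodes a cytoplasmic protein induced by hypoxia and cell stress, and SLC2A1 encodes GLUT1, the glucose transporter that brings glucose into most cells for glycolysis. Both genes are widely used as markers of HIF activity.

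The cells were 786O, an established ccRCC line, infected with lentivirus that carried an shRNA of scramble sequence (shControl, genotype given as WT) or an shRNA against BMAL1 (shBMAL1, genotype given as BMAL1 knockdown) and selected with puromycin. CUT&RUN uses an antibody to bring a nuclease to a chromatin protein and sequences the fragments cut free around it. It was run on 100000 cells per reaction with antibodies against BMAL1, HIF2α or, as negative control, rabbit IgG. The BMAL1 and HIF2α lists of shControl cells and the HIF2α list of shBMAL1 cells were each pooled from 3 libraries and held 1812, 1204 and 1089 peaks, and the BMAL1 list of shBMAL1 cells was pooled from 2 libraries and held 768. The libraries of a group are labelled as biological replicates, as in the study's methods, whereas its reporting summary calls them technical. That summary also states that a further BMAL1 library of shBMAL1 cells was discarded for low depth. Each list is a single pool with no read counts, so no value below has an error between libraries, and a site that is not called may still hold signal under the threshold. The 4 IgG libraries were not analysed here, and peaks do not measure the amount of BMAL1 protein left in shBMAL1 cells.

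Sites are named here by the distance of the shControl HIF2α summit from the start site of the canonical transcript, negative when upstream. All coordinates are hg19, counted from 1. NDRG1 lies on the minus strand of chromosome 8 (134249418 to 134314265, canonical start site 134309495), and its 5 sites were at -0.3, -23.6, -59.9, -78.5 and -84.9 kb. Of the 9 sites at both genes, 1 lay in a promoter (NDRG1 -0.3 kb), 2 in intron 2 of SLC2A1 and 6 outside any protein-coding gene.

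SLC2A1 lies on the minus strand of chromosome 1 (43391024 to 43424564, canonical start site 43424539), and its 4 sites were at -4.0, -4.8, +17.6 and +26.4 kb. The sites at -4.0 and -4.8 kb of SLC2A1 lay within SLC2A1-DT, a long non-coding RNA gene that runs the other way from SLC2A1. No peak of either protein was assigned to the promoter of SLC2A1. The shControl HIF2α summit at +17.6 kb lay 2.0 kb from the nearest protein-coding start site, which belongs to another transcript of SLC2A1.

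The SLC2A1 sites are shown here because they put the site shared by both proteins beside those where HIF2α alone was called. Each window is 200 bp centred on the shControl HIF2α summit and is written 5′ to 3′ on the strand of the gene, with HRE cores (ACGTG or GCGTG, or their complements) and AP-1 sites (TGACTCA or TGAGTCA) in capitals.
SLC2A1 +17.6 kb (chr1:43406804-43407003, minus strand): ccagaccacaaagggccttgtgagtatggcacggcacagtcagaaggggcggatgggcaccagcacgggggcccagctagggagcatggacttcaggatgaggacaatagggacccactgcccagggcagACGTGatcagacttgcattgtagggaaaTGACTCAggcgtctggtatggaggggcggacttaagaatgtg
SLC2A1 +26.4 kb (chr1:43398025-43398224, minus strand): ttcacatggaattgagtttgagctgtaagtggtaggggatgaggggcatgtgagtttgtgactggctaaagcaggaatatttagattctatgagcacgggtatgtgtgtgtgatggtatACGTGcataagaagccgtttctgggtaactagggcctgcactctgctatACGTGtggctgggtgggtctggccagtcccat
SLC2A1 -4.0 kb (chr1:43428463-43428662, minus strand): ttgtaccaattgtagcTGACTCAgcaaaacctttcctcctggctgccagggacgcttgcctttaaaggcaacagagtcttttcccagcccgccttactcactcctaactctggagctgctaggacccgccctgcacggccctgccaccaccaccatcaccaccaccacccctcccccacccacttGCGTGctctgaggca
SLC2A1 -4.8 kb (chr1:43429278-43429477, minus strand): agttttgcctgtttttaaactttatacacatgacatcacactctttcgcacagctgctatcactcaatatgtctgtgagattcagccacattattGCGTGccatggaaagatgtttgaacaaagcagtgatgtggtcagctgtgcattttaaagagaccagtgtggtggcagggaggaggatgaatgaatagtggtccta
The window at +17.6 kb held 1 HRE core, 33 bp from the HIF2α summit, and 1 AP-1 site, 62 bp from it. At +26.4 kb there were 2 HRE cores, 22 and 71 bp from the summit, and at -4.8 kb the core lay 2 bp from the summit. The window at -4.0 kb held its HRE core 88 bp and its AP-1 site 80 bp from the summit, near opposite edges. An E-box was present in none of the 4 windows.

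The main question was whether the peaks of BMAL1 and HIF2α at these genes coincide. Each of the 4 BMAL1 peaks called at the 2 genes in shControl cells overlapped a HIF2α peak, 3 at NDRG1 (-23.6, -59.9 and -78.5 kb) and 1 at SLC2A1 (+17.6 kb). The share that overlapped was 18.5% over the whole BMAL1 list and 27.9% over the whole HIF2α list. The genes were selected for having peaks of both proteins, so this count is a description and carries no test. The peaks at 5 further sites were called for HIF2α alone.

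**Figure D1:**
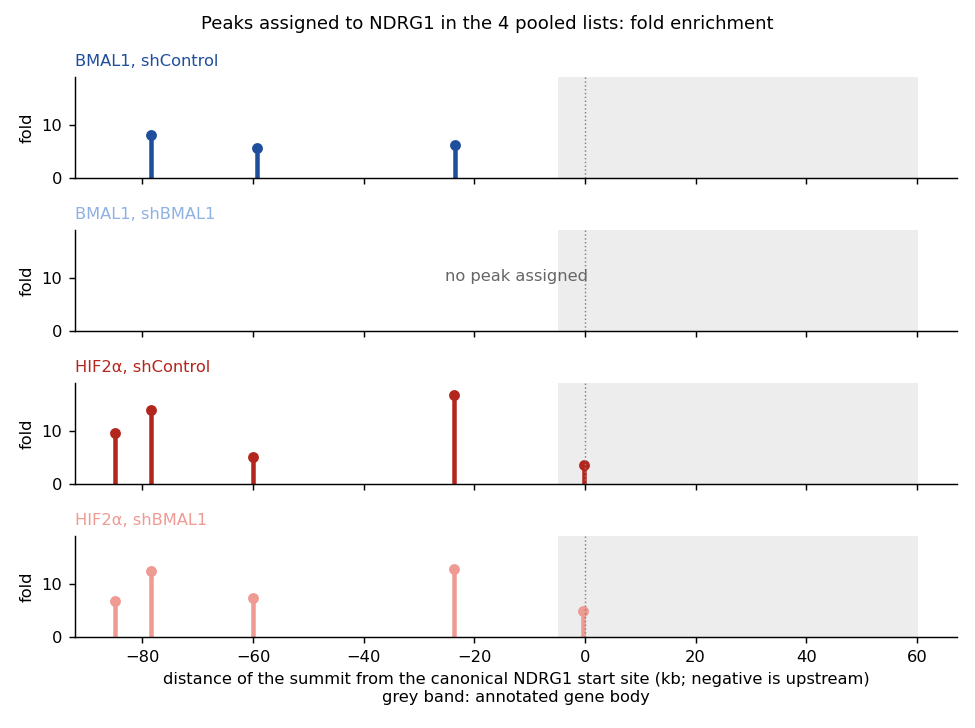
Peaks assigned to NDRG1 in each of the 4 pooled lists, by distance of the summit from the canonical start site (kb, x axis) and fold enrichment (y axis), with the annotated gene body in grey. The 3 BMAL1 peaks of shControl cells stand at HIF2α sites upstream of the gene, no BMAL1 peak stands in shBMAL1 cells, and 5 HIF2α peaks stand in each condition.

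At NDRG1 -78.5 kb the summits of BMAL1 and HIF2α fell on the same base (134387951). The BMAL1 peak (134387826 to 134388089) lay wholly within the HIF2α peak (134387792 to 134388163). The fold enrichment of BMAL1, as deposited, was 8.19 over the background used by the peak caller, which may be IgG or the library itself, and the peak ranked 575 of 1812 by p. HIF2α had a fold of 13.98 and ranked 38 of 1204. This was the strongest BMAL1 peak of the 4 and the strongest HIF2α peak of the 9 by p.

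At NDRG1 -23.6 kb the summits lay 55 bp apart, with the BMAL1 peak (134332871 to 134333198) again inside the HIF2α peak (134332793 to 134333276). HIF2α had its highest fold at either gene here, 16.8, at rank 44 of 1204. BMAL1 had a fold of 6.23 and ranked 1346 of 1812, so that a HIF2α peak near the top of its list stood over a BMAL1 peak in the weaker part of its own.

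SLC2A1 +17.6 kb resembled it. The BMAL1 peak (43406856 to 43407008) lay within the HIF2α peak (43406760 to 43407088), their summits 31 bp apart. HIF2α had a fold of 13.9 and ranked 54 of 1204, and BMAL1 had a fold of 5.37 and ranked 1469 of 1812. This BMAL1 peak was 153 bp wide and covered 46.5% of the HIF2α peak.

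NDRG1 -59.9 kb differed from these sites. Here the summits lay 661 bp apart, although the peaks overlapped, because the HIF2α peak was 976 bp wide (134368558 to 134369533) and the BMAL1 peak (134368616 to 134368815) lay near its edge towards the gene. The folds were 5.07 for HIF2α, at rank 676 of 1204, and 5.71 for BMAL1, at rank 1506 of 1812. The BMAL1 peak covered 20.5% of the HIF2α peak, so the proteins were called in 1 region here but not at the same position. Over all 336 co-occupied HIF2α peaks the median distance between summits was 40.5 bp (quartiles 11 and 96.25 bp), and 58.3% had summits at most 50 bp apart. The sites at -78.5 and -23.6 kb of NDRG1 and +17.6 kb of SLC2A1 had summits closer than the upper quartile of those distances, and the site at -59.9 kb lay beyond it.

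**Figure D2:**
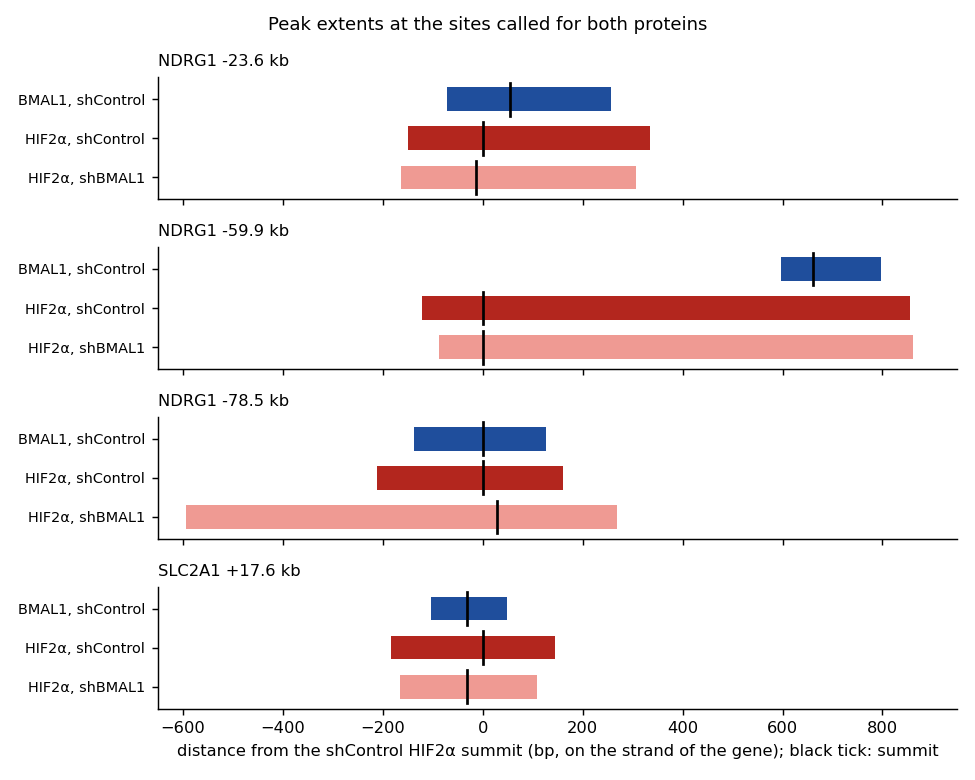
Extent of each peak (bars) and its summit (black tick) at the 4 sites called for both proteins, by distance from the shControl HIF2α summit (bp, on the strand of the gene). The BMAL1 summit lies 0, 31 and 55 bp from the HIF2α summit at 3 sites and 661 bp from it at NDRG1 -59.9 kb.

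The 5 sites called for HIF2α alone were a mixed group. The NDRG1 promoter peak (134309620 to 134309849) was the weakest, with a fold of 3.66 at rank 1060 of 1204. NDRG1 -84.9 kb (134394323 to 134394523) had a fold of 9.55 at rank 233. At SLC2A1, the second intronic site at +26.4 kb (43397973 to 43398225) had a fold of 7.94 at rank 185. The upstream sites at -4.0 kb (43428453 to 43428692) and -4.8 kb (43429302 to 43429452) had folds of 7.38 and 5.83, at ranks 363 and 970. The 3 highest HIF2α folds of the 9 were thus at sites where BMAL1 was also called, and the remaining shared site, NDRG1 -59.9 kb, had the second lowest. Of the 9 HIF2α peaks 6 had a fold above the median of their list (6.87), whereas 1 of the 4 BMAL1 peaks exceeded the BMAL1 median (7.13). Over all 336 co-occupied HIF2α peaks the median fold was 6.24 for HIF2α and 6.53 for BMAL1, each below the median of its own list. High HIF2α folds were thus no general trait of co-occupied sites, and BMAL1 folds below the list median were common there.

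Motifs at the NDRG1 sites varied more than at SLC2A1. The 200 bp window at -78.5 kb held 2 E-boxes, 9.5 and 71.5 bp from the shared summit, together with 3 HRE cores outside them and an AP-1 site 20 bp from the summit. It was the only one of the 9 HIF2α windows with an E-box, against 6.81% of all shControl HIF2α windows and 12.9% of BMAL1 windows. The window at -23.6 kb held no HRE core and had an AP-1 site 25 bp from the HIF2α summit. The whole HIF2α peak there held 1 HRE core, which lay 49 bp from the BMAL1 summit and so within the BMAL1 window. NDRG1 -84.9 kb likewise held no HRE core, and its AP-1 site lay 13 bp from the summit. At -59.9 kb 2 HRE cores lay 44 and 92 bp from the HIF2α summit, whereas the window at the BMAL1 summit there held none of the E-box, HRE core, AP-1 site or GC box (GGGCGG). The promoter window held 2 HRE cores, 40 and 78 bp from the summit.

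In all, 7 of the 9 HIF2α windows held an HRE core, against 70.8% of the windows in the list and 24.3% of windows 2000 bp to each side. An AP-1 site was present in 6 of the 9, against 27.5% of the list and 3.74% of flanking windows, and a GC box in 2, against 18.4%. In windows of 100 bp the AP-1 count was 3 of 9 in each condition. Windows at the 9 HIF2α summits of shBMAL1 cells gave similar counts, with an HRE core in 7 (69.5% of that list; 4 in windows of 100 bp), an AP-1 site in 6 (26.5%), an E-box in 1 (6.24%) and a GC box in 3 (15.8%). Of the 4 BMAL1 windows 3 held an HRE core (58.1% of the list), 3 an AP-1 site (13.0%), 1 an E-box and 1 a GC box (61.5%). All 4 are shared sites, and at all co-occupied sites the windows at the HIF2α summit held an HRE core in 62.2%, an AP-1 site in 22.6%, an E-box in 10.1% and a GC box in 25%. In windows of 100 bp 1 of the 4 held an HRE core and 2 an AP-1 site. Over the whole BMAL1 peak 2 held an AP-1 site. With 9 and 4 windows these counts describe the genes and were not tested. GC content of the windows at the 2 genes ranged from 42.5% to 74.0%, the highest at the NDRG1 promoter, against medians of 65.5% for all shControl BMAL1 windows and 53.5% for HIF2α.

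The second question was which of these peaks were called after depletion of BMAL1. No BMAL1 peak was assigned to NDRG1 or SLC2A1 in shBMAL1 cells, so that 0 of the 4 overlapped a peak of that list, against 38.7% of all shControl BMAL1 peaks and 22.7% of those that overlapped a HIF2α peak. The list of shBMAL1 cells was shorter and pooled from fewer libraries, and weaker peaks were called again less often. In quintiles of the shControl BMAL1 list by p, from strongest to weakest, 90.1%, 60.5%, 22.7%, 13.0% and 7.16% of peaks overlapped a shBMAL1 peak. NDRG1 -78.5 kb was in the second quintile, NDRG1 -23.6 kb in the fourth, and NDRG1 -59.9 kb and SLC2A1 +17.6 kb in the weakest. Depletion, peak strength and the number of libraries cannot be told apart at 4 peaks.

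HIF2α was called at each of the 9 sites in both conditions. Over the list 57.7% of shControl HIF2α peaks overlapped a shBMAL1 HIF2α peak, and 60.4% of those that overlapped a BMAL1 peak. The sites at NDRG1 -23.6, -78.5 and -84.9 kb and at SLC2A1 +17.6 and +26.4 kb belonged to the strongest quintile of the list by p, of which 95.0% was called again. The NDRG1 promoter and SLC2A1 -4.8 kb belonged to the weakest, of which 27.4% was called again. SLC2A1 -4.0 kb was in the second quintile (76.3%) and NDRG1 -59.9 kb in the middle quintile (53.8%), and none of the 9 was in the fourth (36.1%).

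The fold enrichment of HIF2α moved in no common direction, higher in shBMAL1 cells at 5 sites and lower at 4. At the sites shared with BMAL1 it was 16.8 in shControl and 12.8 in shBMAL1 cells at NDRG1 -23.6 kb, 13.98 and 12.4 at NDRG1 -78.5 kb, and 13.9 and 11.6 at SLC2A1 +17.6 kb. It was higher in shBMAL1 cells at NDRG1 -59.9 kb, 5.07 and 7.44, the site where the summits lay apart. Among sites called for HIF2α alone, NDRG1 -84.9 kb had 9.55 and 6.73, and the NDRG1 promoter 3.66 and 4.97. The SLC2A1 sites had 7.94 and 8.18 at +26.4 kb, 7.38 and 9.56 at -4.0 kb, and 5.83 and 6.38 at -4.8 kb.

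On the log2 scale these differences (shBMAL1 minus shControl) ran from -0.50 at NDRG1 -84.9 kb to 0.55 at NDRG1 -59.9 kb. The median over all 695 HIF2α peaks called again was 0.02, with quartiles of -0.35 and 0.42, and 5 of the 9 sites lay between those quartiles. The lists were not brought to a common depth, so these are differences between values of separate lists and were not tested. Ranks moved most at NDRG1 -84.9 kb, from 233 of 1204 to 533 of 1089, and at NDRG1 -59.9 kb, from 676 of 1204 to 335 of 1089. The HIF2α summits of the 2 conditions lay 0 to 56 bp apart.

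**Figure D3:**
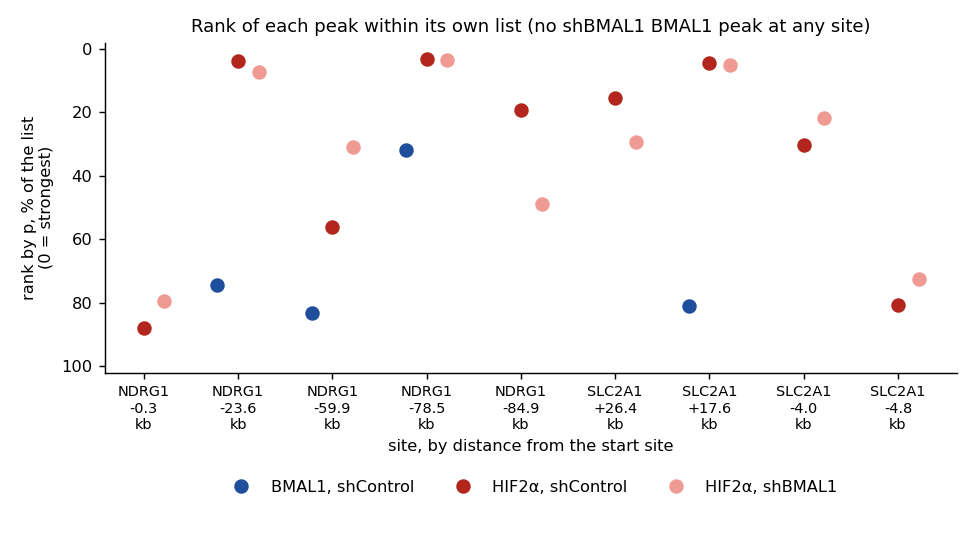
Rank by p of each peak at the 9 sites as a percent of its own list (y axis, 0 is the strongest), for the 3 lists that hold peaks there. By p the HIF2α peak ranks above the BMAL1 peak at each of the 4 shared sites, an order that turns at NDRG1 -59.9 kb when peaks are ranked by fold (82.5% of the list for HIF2α and 72.2% for BMAL1), and NDRG1 -23.6 kb, NDRG1 -78.5 kb and SLC2A1 +17.6 kb stay within the first 7.16% of the HIF2α lists in both conditions.

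NDRG1 had 3 shared sites, and having any follows largely from how it was chosen. By the same rule 321 of 20149 protein-coding genes (1.59%) had at least 1 co-occupied site in shControl cells, and 4 genes had 3 or more (ARNT, CTSK, EPAS1 and NDRG1). The 3 of NDRG1 include -59.9 kb, where the summits lay 661 bp apart. They became 2 with summits within 100 bp or with a reciprocal overlap of 50%, and 1 with −log10 p of at least 20 or with lists of equal length. No BMAL1 peak was left at NDRG1 when peaks had to lie in the gene body or within 10000 bp upstream. ARNT and EPAS1 encode the partner of HIF2α and HIF2α itself, and CTSK has the start site nearest to summits in the body of ARNT. The highest BMAL1 fold at EPAS1 in shControl cells was 189, against a list median of 7.13. Why so many peaks were called at ARNT and EPAS1 was not tested. For the number of HIF2α peaks in shControl cells, 5 genes had more than the 5 of NDRG1 and 6 genes more than the 4 of SLC2A1.

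**Figure D4:**
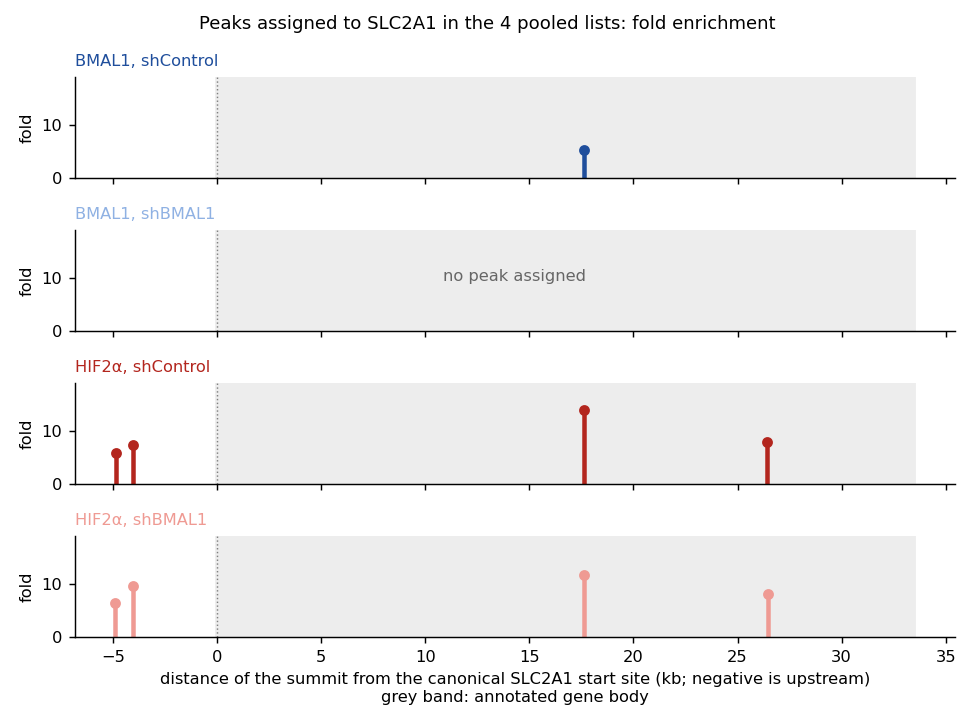
Peaks assigned to SLC2A1 in each of the 4 pooled lists, by distance of the summit from the canonical start site (kb, x axis) and fold enrichment (y axis), with the annotated gene body in grey. The single BMAL1 peak of shControl cells, of fold 5.37, stands at the intronic HIF2α peak of fold 13.9, and the 4 HIF2α peaks stand in both conditions.

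The assignment of distal peaks follows distance alone. The farthest peak assigned to NDRG1 (-84.9 kb) lay 80.1 kb from the nearest start site of that gene. Just outside the rule, a HIF2α peak in the body of the neighbouring gene CCN4, 80.5 kb downstream of the NDRG1 start site, was called in both conditions (fold 9.16 and 12.6) and had the start site of CCN4 25.7 kb away. For SLC2A1 the nearest such peak was a shControl HIF2α peak at -99.9 kb (fold 7.26), 86.4 kb from the start site of CFAP144. When start sites of genes of any type were counted, the 4 distal NDRG1 sites were nearest to the pseudogenes RPL32P20 and DPPA3P7, so that 1 HIF2α peak and 0 BMAL1 peaks remained with NDRG1.

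Genes of the hypoxia response were examined by the same rule in a list of 50 genes, which includes NDRG1 and SLC2A1. A HIF2α peak of shControl cells was assigned to 29 of these, against 5.34% of protein-coding genes, and a BMAL1 peak to 13, against 8.98%. Both proteins were called at 12 of them (background 2.09%), 41.4% of those with HIF2α, close to the 39.2% over all genes with a HIF2α peak. In shBMAL1 cells 27 had a HIF2α peak and 3 a BMAL1 peak (background 4.70% and 3.99%). At each of the 12 genes with both proteins a BMAL1 peak overlapped a HIF2α peak, against 76.0% of all genes with both. The pattern of NDRG1 and SLC2A1 was HIF2α called in both conditions and BMAL1 in shControl cells only. It was shown by 10 of the 12, against 43.7% of all genes with both, a share not matched for the strength of the BMAL1 peaks. The 10 include EPAS1 and ARNT, whose strongest BMAL1 peaks ranked 1 and 22 of 1812 by p, and NDRG1 at 575. At PFKP, HK2, LDHA, CA12, TGFA and SLC2A1 the strongest BMAL1 peak ranked between 1089 and 1469, in the part of the list that was called again less often. NDRG1 and SLC2A1 are themselves counted in the 12 and the 10, and they were selected for having both proteins. The list was chosen with earlier results of these data known, so these shares are descriptions and were not tested.

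In glucose transport and glycolysis, HIF2α was called at 13 of 17 listed genes in shControl cells and BMAL1 at 6. Besides SLC2A1 these 6 were the hexokinase HK2, PFKFB4, the phosphofructokinase PFKP, LDHA, which makes lactate, and PDK1, a kinase that restrains pyruvate dehydrogenase. Their strongest HIF2α folds in shControl cells were 10.8 at HK2, 10.6 at PFKFB4, 7.31 at PFKP, 12.8 at LDHA and 5.80 at PDK1, and their strongest BMAL1 folds were 7.45, 8.59, 6.09, 5.82 and 5.59 in the same order. PFKFB4 differed from SLC2A1 in that its BMAL1 peak was also called in shBMAL1 cells, and PDK1 in that HIF2α was not. HIF2α was called without BMAL1 in shControl cells at SLC2A3, which encodes GLUT3, and at PFKFB3, ALDOA, GAPDH, PGK1, ENO1 and PKM. Among these PFKFB3 had a BMAL1 peak in shBMAL1 cells only. Of the NDRG family, NDRG1 alone had peaks, and NDRG2, NDRG3 and NDRG4 had none in any list.

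Among HIF pathway genes, EPAS1 and ARNT had 10 and 14 BMAL1 peaks and 11 and 14 HIF2α peaks in shControl cells. EGLN3, a prolyl hydroxylase that marks HIF subunits for degradation, had 3 HIF2α peaks and no BMAL1 peak. EGLN2 had BMAL1 peaks only, in both conditions, CITED2 had a HIF2α peak in shControl cells only, and EGLN1 had one in shBMAL1 cells only. Of the 9 growth and vascular genes, TGFA had both proteins in shControl cells, ADM and ANGPTL4 had HIF2α alone in both conditions, and VEGFA had HIF2α alone in shControl cells. Of the 10 genes of pH, lipid, stress and mitophagy, CA12, a carbonic anhydrase, had both proteins. PLIN2, HILPDA, DDIT4, BNIP3L and P4HA1 had HIF2α alone in both conditions.

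**Figure D5:**
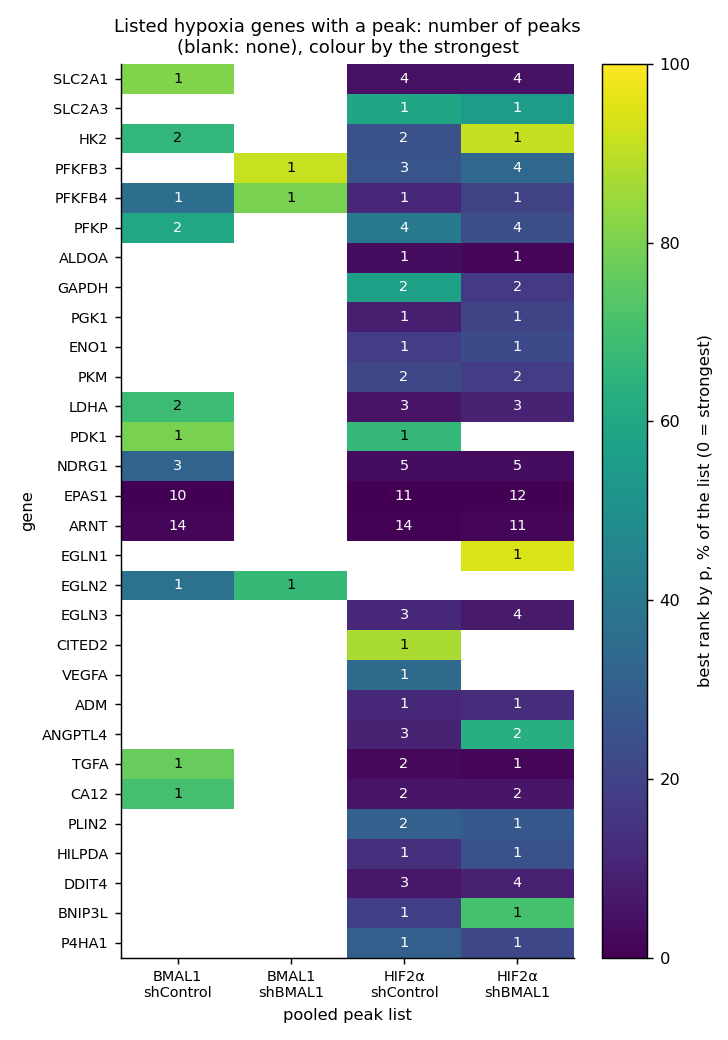
Number of peaks in each of the 4 pooled lists for 30 listed hypoxia genes with a peak in any list, with the colour giving the rank by p of the strongest peak as a percent of its list (0 is the strongest, blank is no peak). BMAL1 peaks of shControl cells are found at 12 of the genes plotted, and the column of BMAL1 in shBMAL1 cells holds 3.

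Genes whose pattern over the 4 lists was most like that of each gene were found from the rank of their strongest peak in each list, scaled from 0 (no peak) to 1 (first of the list), among 1476 genes with a peak in at least 2 lists. The BMAL1 strength of NDRG1 was 0.683 in shControl and 0 in shBMAL1 cells, and its HIF2α strength was 0.969 and 0.968. The nearest genes were AUH, TLE1, DNM2, ASAP1 and DLG5, at Euclidean distances of 0.0544 to 0.163. AUH and DNM2 had 2 co-occupied sites each and TLE1 had 1, whereas ASAP1 and DLG5 had none. DNM2 differed in a BMAL1 peak called in shBMAL1 cells. The BMAL1 strength of SLC2A1 was 0.190 and 0, and its HIF2α strength 0.956 and 0.951, in the same order. The nearest genes were TGFA, P4HA2 and PDLIM4, which share their peaks, TRIB3 and GSE1, at distances of 0.0612 to 0.0888. TGFA, a growth factor ligand of the EGF receptor, and TRIB3 had 1 co-occupied site each, whereas P4HA2, PDLIM4 and GSE1 had none. The strongest BMAL1 and HIF2α folds of TGFA in shControl cells were 6.53 and 25.3.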

How the data were processed

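CUT&RUN was performed on 786O cells in 15 libraries (6 groups of antibody and shRNA), and the 4 peak lists analysed here were each pooled over a group by the authors. Per the authors' methods, reads were aligned to hg19 with Bowtie2 2.5.3 (sacCer3 for the spike-in), duplicates were removed, peaks were called with MACS2 2.2.9.1 and blacklisted regions were removed with bedtools 2.31.1. It is not stated whether IgG served as the control. The deposited columns are a fold enrichment (a ratio over the background used by the caller), a −log10 p, the peak's positions and an integer score of the caller, which the authors deposited and which was not used here, as was a −log10 q. The smallest −log10 p was 8.64 to 9.07 over the 4 lists. The files hold no read counts, so the depth behind each peak cannot be read from them, and the depth stated by the study was not used.

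Here summits were assigned with GENCODE release 44 lifted to GRCh37, which shares coordinates with hg19. Start sites were those of protein-coding transcripts. Peaks were ranked within their list by −log10 p. Overlap meant at least 1 bp. Motifs were searched on both strands in windows of 200 bp, promoters ran from 1000 bp upstream to 100 bp downstream, and sequence was read from the same assembly (Python 3.11.15, pandas 2.3.3). Overlap, assignment and motif search were checked on simulated data. The genes, the list of 50 hypoxia genes and the alternatives were chosen with earlier results of these data known. The named genes are NDRG1 and SLC2A1, every listed hypoxia gene with a peak (1 is counted but not reported here by name), and the 5 genes nearest to each member by strength over the 4 lists. CTSK, CCN4, CFAP144, RPL32P20, DPPA3P7, C1orf50, P3H1 and ST3GAL1 were named after their values were seen. No test was made, since each group is 1 pooled list.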

Additional observations from a re-analysis of the deposited data

How the results depend on the processing

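Leaving out each replicate was not possible because the lists are pooled over libraries. No paired analysis was possible because libraries were merged before peaks were called. Of 98 alternative counts 70 stayed within 1.5 times their main value. These include counts of 0 for BMAL1 in shBMAL1 cells, which settings that only remove peaks cannot raise.

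With −log10 p of at least 20, NDRG1 had 1 BMAL1 peak in shControl cells, which overlapped a HIF2α peak, and 3 HIF2α peaks in each condition, of which 2 coincided between conditions. SLC2A1 then had 0 BMAL1 peaks and so 0 shared sites, and BMAL1 peaks were at 6 listed hypoxia genes in shControl and 1 in shBMAL1 cells. With lists of equal length (the strongest 768 peaks) NDRG1 had 1 BMAL1 peak and 1 shared site, SLC2A1 0 of each, and BMAL1 peaks of shControl cells were at 6 listed genes. By construction both settings remove weaker peaks. With the gene body or 10000 bp upstream, NDRG1 had 0 BMAL1 peaks and 1 HIF2α peak in each condition. With start sites of any gene type it had the same numbers, 0 and 1, and SLC2A1 had 2 HIF2α peaks in each condition. With a reciprocal overlap of 50%, 2 BMAL1 peaks at NDRG1 and 0 at SLC2A1 coincided with HIF2α, and 3 HIF2α peaks at NDRG1 coincided between conditions. In windows of 100 bp, 1 BMAL1 peak and 4 shBMAL1 HIF2α peaks held an HRE core, and 3 HIF2α peaks in each condition an AP-1 site. Without EPAS1 and ARNT, an alternative added after the data were examined, no count of listed genes moved by more than 1.5 times. Ranked by fold in place of p, 18 of 22 peaks moved beyond the 95% Wilson interval of their rank share. That interval treats a rank as a count out of the list. It served only as a cutoff and measures no spread between libraries.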

Other observations

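Outside the rule, the BMAL1 peaks nearest to both genes stood at promoters of other genes. The BMAL1 peak at the shared promoter of C1orf50 and P3H1 (chromosome 1, 43232818 to 43233001 in shControl cells), 191.6 kb downstream of the SLC2A1 start site, was called in both conditions, with a fold of 5.31 at rank 1334 of 1812 in shControl cells and of 7.76 at rank 637 of 768 in shBMAL1 cells. Its fold in shControl cells was close to the 5.37 of the SLC2A1 peak that was not called in shBMAL1 cells, which ranked lower by p (1469 of 1812). The promoter peak was named after its values were seen, so the pair is a description only. The BMAL1 peak at the promoter of ST3GAL1 (chromosome 8, 134584292 to 134584473), at -274.9 kb from the NDRG1 start site, had a fold of 5.38 at rank 839 of 1812 and was called in shControl cells only. These values are from single pooled lists and were not tested.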
